A study of Mus musculus with 13 samples.

Results

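Neurons of the mouse medial amygdala that held transcripts of Trh, the precursor gene of thyrotropin-releasing hormone, were described against the other glutamatergic neurons of the same tissue. A neuron counted as a Trh neuron when the authors had classed it as a neuron, at least 500 genes were detected in it, it held no molecule of Slc32a1 (the vesicular transporter of GABAergic neurons) and it held at least 2 molecules of Trh. This rule gave 168 cells of 43388 deposited, which is 0.387% of all cells and 4.60% of the 3649 neurons with at least 500 genes. The comparison cells were the 1077 neurons with at least 1 molecule of Slc17a6 (the vesicular glutamate transporter VGLUT2), none of Slc32a1 and none of Trh. The Trh neurons came from all 13 libraries, 88 cells from 6 male libraries and 80 cells from 7 female libraries. The mice were naive males and females of the inbred strain C57BL/6J, kept on a reversed light cycle and housed singly before dissociation. They were aged 8 weeks in male replicates 3 and 5 and in female replicate 3, and 9 weeks in the other libraries. The tissue was taken apart by Act-seq, in which new transcription is blocked during dissociation, and the cells were captured by Drop-seq, in which a molecular identifier (UMI) on each captured mRNA lets amplified copies be counted as 1 molecule. Whether each library came from its own animals is not in the labels, so p-values measure the spread between libraries, which may be technical.

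TRH is a short peptide cut from a larger precursor by prohormone convertases, trimmed by a carboxypeptidase and amidated at its end. In the hypothalamus it drives release of thyroid-stimulating hormone from the pituitary, while elsewhere in the brain it acts as a transmitter-like peptide through G-protein-coupled receptors and is broken down outside the cell by a TRH-degrading ectoenzyme. The medial amygdala receives chemosensory input and serves social and reproductive behaviour, and its principal cells include both GABAergic and VGLUT2-bearing glutamatergic neurons.

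Trh lies on chromosome 6 of GRCm38 at 92242061 to 92244650, on the minus strand. Its promoter is printed because every cell described here was chosen by this gene. The window chr6:92244601-92244900 (minus strand, RefSeq on GRCm38.p6) reaches from 250 bases before the annotated start to 50 bases after it. Capitals mark the letters TGACCTCA and TATAA.
Trh promoter: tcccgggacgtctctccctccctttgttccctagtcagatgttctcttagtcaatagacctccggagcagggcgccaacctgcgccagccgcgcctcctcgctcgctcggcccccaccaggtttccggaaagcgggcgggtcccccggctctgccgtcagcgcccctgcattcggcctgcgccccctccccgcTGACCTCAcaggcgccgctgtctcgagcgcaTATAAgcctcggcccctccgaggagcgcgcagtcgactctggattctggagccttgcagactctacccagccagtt
TATAA, the core of the TATA box, was found once in the window, at base 225, and some match on either strand was present in 24.8% of 32544 promoter windows of the same kind. TGACCTCA, a sequence known in the Trh promoter as a site for the thyroid hormone receptor and for CREB, was found once, at base 194, and was present on either strand in 2.18% of the windows. The matches do not overlap. They describe letters only, and no binding was measured here.

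Libraries held 3808759 to 8008900 UMIs in cells with at least 500 genes. Trh neurons held a median of 2422 UMIs and 1242.5 detected genes per cell, against 2109 UMIs and 1197 genes in the other glutamatergic neurons, and their median UMIs were higher in 9 of 13 libraries. Depth was uneven between libraries. The median was highest in male replicate 3, with 8323.5 UMIs in its 10 Trh neurons, then 6336 in female replicate 4 and 4463 in male replicate 6. It was lowest in female replicate 5, with 1031 UMIs in Trh neurons and 2738 in the comparison cells. Scrublet called 1 Trh neuron and 12 comparison cells doublets. No Trh neuron shared its barcode with a cell of another library. Female replicate 1 held 4 Trh neurons and was left out of the fits, which used the other 12 libraries with 6 to 22 Trh neurons each.

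Trh transcripts were concentrated in few cells. The 168 Trh neurons held 1980 of the 2060 Trh UMIs seen in neurons, which is 96.1%, and 93.8% of those seen in all cells with at least 500 genes. A Trh neuron held between 2 and 137 Trh UMIs, with quartiles of 3, 7 and 13, and 61 of them held 10 or more. Trh made up a median of 0.256% of a Trh neuron's UMIs and at most 2.61%. Just inside the threshold stood 29 cells with exactly 2 Trh UMIs and 21 with 3, and just outside it stood 45 Slc32a1-free neurons with exactly 1. A further 5 neurons held at least 2 Trh UMIs together with Slc32a1 and were not counted.

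Trh was seen in 15.1% of the 1268 neurons with Slc17a6 and without Slc32a1 (median 2145 UMIs), in 2.33% of the 945 neurons with neither transporter (median 1111 UMIs) and in 1.04% of the 1436 neurons with Slc32a1 (median 2321 UMIs). Astrocytes, which are not known to make the peptide, showed it in 0.155% of 6451 cells at a median of 1809 UMIs, a share that serves as background from free RNA. Microglia, mural cells, mature oligodendrocytes and oligodendrocyte precursors showed it in 0.106% to 0.214% of cells and endothelial cells in 0.331%. It was seen in 0 of 466 cells of the class between precursors and oligodendrocytes, which by the limit of 3 counts allows a share of cells with a UMI of up to 0.644%. Exact binomial 95% intervals (Clopper-Pearson) for other classes were 13.1% to 17.2% for the Slc17a6 neurons and 0.0744% to 0.285% for astrocytes, and they cover counting error only.

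Slc17a6 was seen in 155 of the 168 Trh neurons (92.3%), although the rule had not asked for it. Slc17a7 (VGLUT1, the transporter of cortical and hippocampal pyramidal cells) was seen in 61 of them (36.3%). Both transporters were seen in 55 cells, only Slc17a6 in 100, only Slc17a7 in 6 and neither in 7. Slc17a8 (VGLUT3) was seen in 2 cells. Gad1 was seen in 1.19% and Gad2 in 7.74% of Trh neurons, against 1.95% and 5.66% of other glutamatergic neurons, with 1.21% and 3.08% in astrocytes as background. The Trh neurons thus carried the glutamatergic transporter and held the GABA-synthesis genes at shares near those of the comparison cells.

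Abi3bp, which encodes an extracellular matrix protein, and C1ql3, which encodes a secreted C1q-like protein that binds the adhesion receptor BAI3 at synapses, had named these neurons in an earlier clustering of the same cells and are given without a test. C1ql3 was seen in 71.4% of Trh neurons and 18.1% of the other glutamatergic neurons, or in 55.5% and 11.03% after every cell had been thinned to 1000 UMIs (155 and 907 cells were deep enough). Abi3bp was seen in 40.5% and 3.53%, or in 27.1% and 2.21% after thinning. Astrocytes showed either gene in 0.29% of cells. Per library, summed Abi3bp was 86.8, 196 and 663 CPM in Trh neurons (counts scaled to a common library total, given as lowest, median and highest of 12 libraries), against 0, 24.3 and 58.2 CPM in the others, so the libraries did not overlap. C1ql3 was 237, 893 and 1898 CPM in Trh neurons, against 69.9, 208 and 444 CPM in the others, higher in 12 of 12 libraries but with overlapping ranges. Of the Trh neurons, 63 held both genes, 57 held C1ql3 only, 5 held Abi3bp only and 43 held neither.

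The Trh neurons were not of 1 kind. All neurons were grouped on their other transcripts, with Trh, Slc32a1, Slc17a6 and sex-linked genes left out. C1ql3, Abi3bp and the other markers named below were not left out, so their levels by cluster are not independent of the grouping. Of the 15 nearest neighbours of a Trh neuron in other libraries, a mean of 56.9% were Trh neurons, against 3.07% around other glutamatergic neurons and 4.60% among all neurons, while 17 Trh neurons had no Trh neighbour. Of 21 clusters, 1 held 107 Trh neurons (63.7%) from all 13 libraries among its 263 cells. A second, of 48 cells, held 19 Trh neurons from 9 libraries. The other 42 lay scattered over 9 clusters.

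Trh neurons of the largest cluster carried the features of the label. They held 8 Trh UMIs at the median, C1ql3 was seen in 91.6% of them, Abi3bp in 57.9%, Slc17a7 in 44.9%, Cck in 99.1%, Ndnf (a secreted neurotrophic protein) in 69.2% and Crh (corticotropin-releasing hormone) in 29.0%. The 19 of the second cluster were deeper, with a median of 8602 UMIs against 2165 in the largest, yet C1ql3, Slc17a7, Ndnf and Crh were at 0 UMIs in all of them and Abi3bp was seen in 1. They held instead Otp, a homeobox gene of hypothalamic and amygdalar neurons, in 47.4% of cells, Foxp2 in 52.6%, Cxcl14 (a chemokine gene) in 73.7% and Sema3a in 94.7%. Otp was seen in 0.935% of the Trh neurons in the largest cluster. The 42 others held Penk (proenkephalin) at 1213 CPM pooled over the cells, against 30.4 CPM in the largest cluster. These are descriptions of the cells that were clustered, with no test, and the markers C1ql3 and Abi3bp were high in the largest cluster and not in the second.

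Cells of the largest cluster without Trh held these markers too. The 132 such cells, at a median of 1576.5 UMIs, held C1ql3 at 1038 CPM and Abi3bp at 188 CPM when pooled, against 172 and 20.4 CPM over all other glutamatergic neurons. Of the 263 cells of the cluster, 105 were comparison cells. Pcsk2 was 2249 CPM in the 107 Trh neurons of the cluster, 989 CPM in the 61 outside it, 1347 CPM in the cluster's cells without Trh and 499 CPM over all other glutamatergic neurons. Trhde was 511, 97.6, 193 and 82.3 CPM in the same order of cells, and Trhr was 12.2, 115, 15.4 and 235 CPM. Slc17a7 was 347 CPM in the cluster's Trh neurons and 28.3 CPM in its cells without Trh. These pooled values carry no test.

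**Figure D1:**
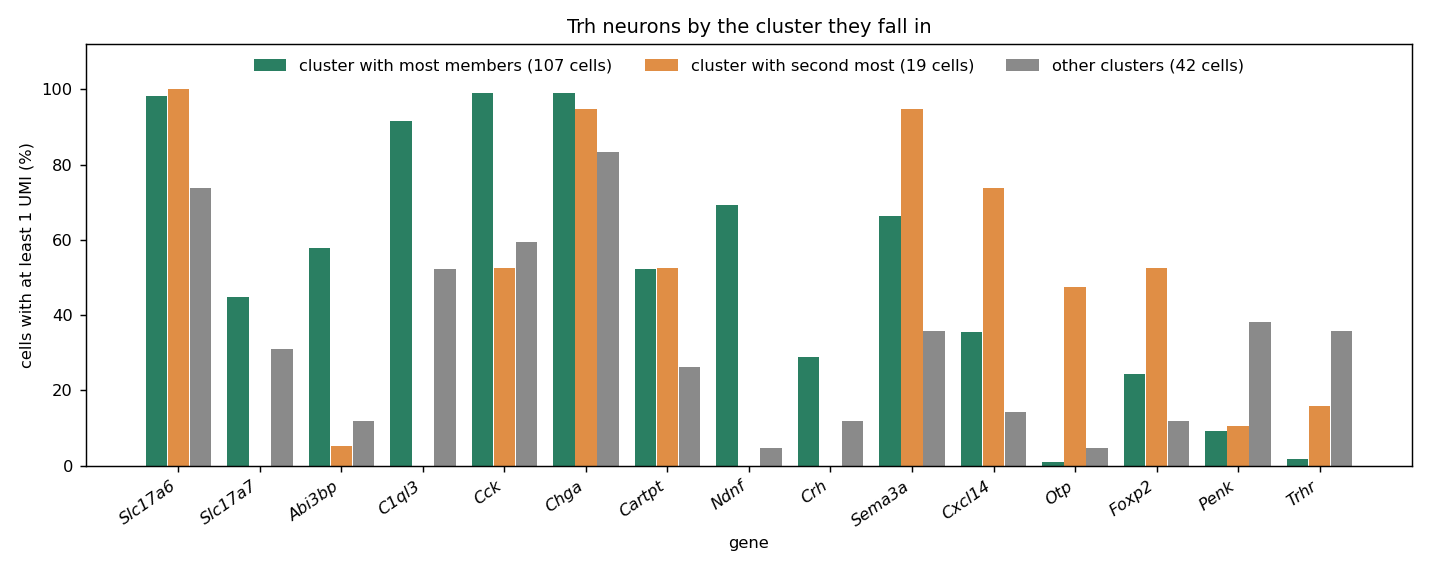
Share of Trh neurons with at least 1 UMI of each gene (y axis, %), for the 107 cells of the cluster with most Trh neurons, the 19 of the cluster with second most and the 42 in other clusters (bars from left to right). C1ql3, Slc17a7, Ndnf and Crh have bars in the first group and none in the second, where Otp reaches 47.4% and Sema3a 94.7%.

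The other genes varied with the number of Trh UMIs in the cell. The bin of 0 held the 1077 comparison cells, all chosen with Slc17a6. The other bins held all Slc32a1-free neurons of that Trh count, and Slc17a6 was seen in 80% of those with 1 Trh UMI. The step from 0 to 1 therefore also changed how cells were chosen. In neurons with 0, 1, 2, 3 to 4, 5 to 9, 10 to 19 and 20 or more Trh UMIs, pooled Abi3bp was 20.4, 82.9, 102, 99.8, 212, 368 and 259.5 CPM. Trhde had its lowest and highest values in the same bins, with 82.3 CPM in the comparison cells and 423 CPM in neurons with 10 to 19 Trh UMIs. C1ql3 was 663 CPM in the 45 neurons with a single Trh UMI, against 172 CPM in the comparison cells. Nr2f2 was 291 CPM in the comparison cells, 113 CPM in neurons with 1 Trh UMI and between 4.50 and 78.8 CPM from 2 upwards. The bins share libraries and differ in depth, with median UMIs of 1569 in cells with 1 Trh UMI and 4687.5 in those with 20 or more, and they carry no test.

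**Figure D2:**
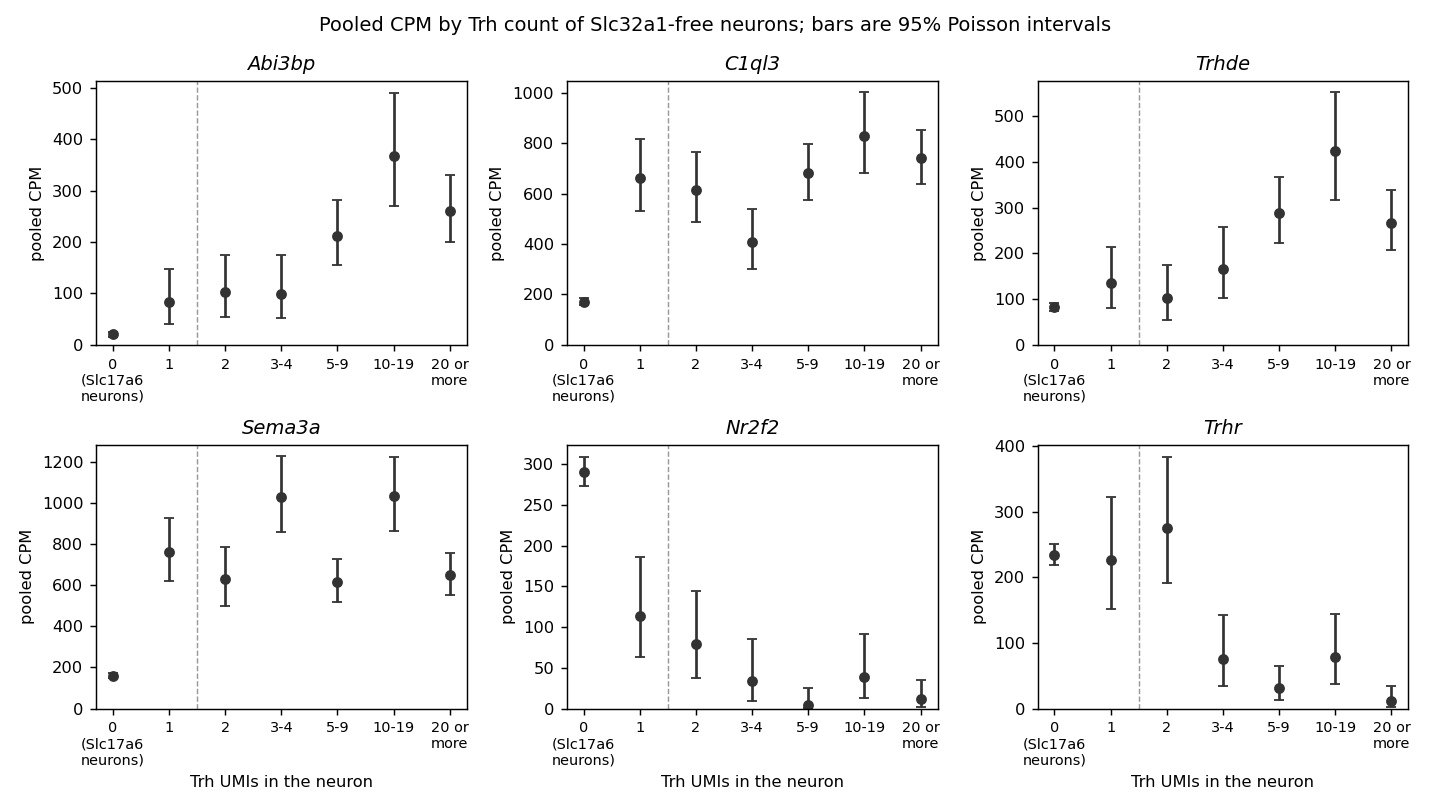
Pooled CPM (y axis) of 6 genes in Slc32a1-free neurons by the number of Trh UMIs in the cell (x axis), with 95% Poisson intervals and a dashed line at the threshold of 2. Abi3bp and Trhde are highest at 10 to 19 Trh UMIs (368 and 423 CPM), while Nr2f2 is lowest at 5 to 9 (4.50 CPM) and Trhr at 20 or more (11.8 CPM).

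The Trh neurons were then tested against the other glutamatergic neurons of the same libraries, with UMIs summed per library and kind of cell. Deep cells weigh more in such sums. The 61 Trh neurons outside the largest cluster had a median of 3849 UMIs, against 2165 in its 107 Trh neurons. The calls therefore describe all Trh neurons together, and whether they hold for the largest cluster alone was not tested. Of 3507 genes tested, 193 passed an adjusted p of 0.05 (5.5%), 120 higher (3.42%) and 73 lower (2.08%) in Trh neurons, with edgeR's quasi-likelihood test and Benjamini-Hochberg adjustment. The median log2 difference over all tested genes was -0.06. The shares of 3.42% higher and 2.08% lower over all tested genes are the base for the list counts below. The same direction in all 12 libraries was seen for 41 of the called genes, a count not given over all tested genes. For 11 called genes the ranges of the libraries did not overlap, and over all 3507 tested genes the count was also 11. The clustering that gave the label used the same cells, so these differences are not independent support for it.

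Trh neurons held more of the convertase gene Pcsk2 and of the degrading enzyme's gene, and less of the receptor gene. The pooled levels above show that these values varied with the cluster as well as with Trh. Pcsk2, the prohormone convertase PC2, was 1041, 2080.2 and 4088 CPM in Trh neurons (lowest, median and highest library), against 336, 615 and 746 CPM in the others. All 12 libraries were higher and the ranges did not overlap, with a log2 difference of 1.70 ± 0.20 (SE, adjusted p = 1.49e-08). Trhde, the TRH-degrading ectoenzyme, was 115, 348 and 721 CPM, against 37.0, 96.0 and 138 CPM, a log2 difference of 1.86 ± 0.27 (adjusted p = 1.02e-06) and higher in 12 of 12 libraries with some overlap. Trhr, the TRH receptor, went the other way, with 0, 72.8 and 254 CPM in Trh neurons, against 121, 263 and 493 CPM in the others. It was lower in 12 of 12 libraries, by -1.72 ± 0.30 on the log2 scale (adjusted p = 4.82e-05). After thinning, Trhr was seen in 6.45% of Trh neurons and 17.5% of the others (11.9% and 26.1% before), against 0.22% of astrocytes.

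The remaining genes of peptide maturation did not pass. Pcsk1, the other neuronal convertase, had a log2 difference of -0.35 ± 0.41 (adjusted p = 0.743). Cpe, the carboxypeptidase, had one of -0.13 ± 0.18 (adjusted p = 0.779). Pam, the amidating enzyme, was 996 ± 496 CPM in Trh neurons and 1393 ± 267 CPM in the others (SD, n = 12), with a log2 difference of -0.57 ± 0.21 (adjusted p = 0.118). It passed when every cell was thinned to 1000 UMIs (-0.94, adjusted p = 0.000863). Over the list of TRH processing and response, 10 of 13 genes were tested, of which 2 were higher and 1 was lower, with a median of -0.04.

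**Figure D3:**
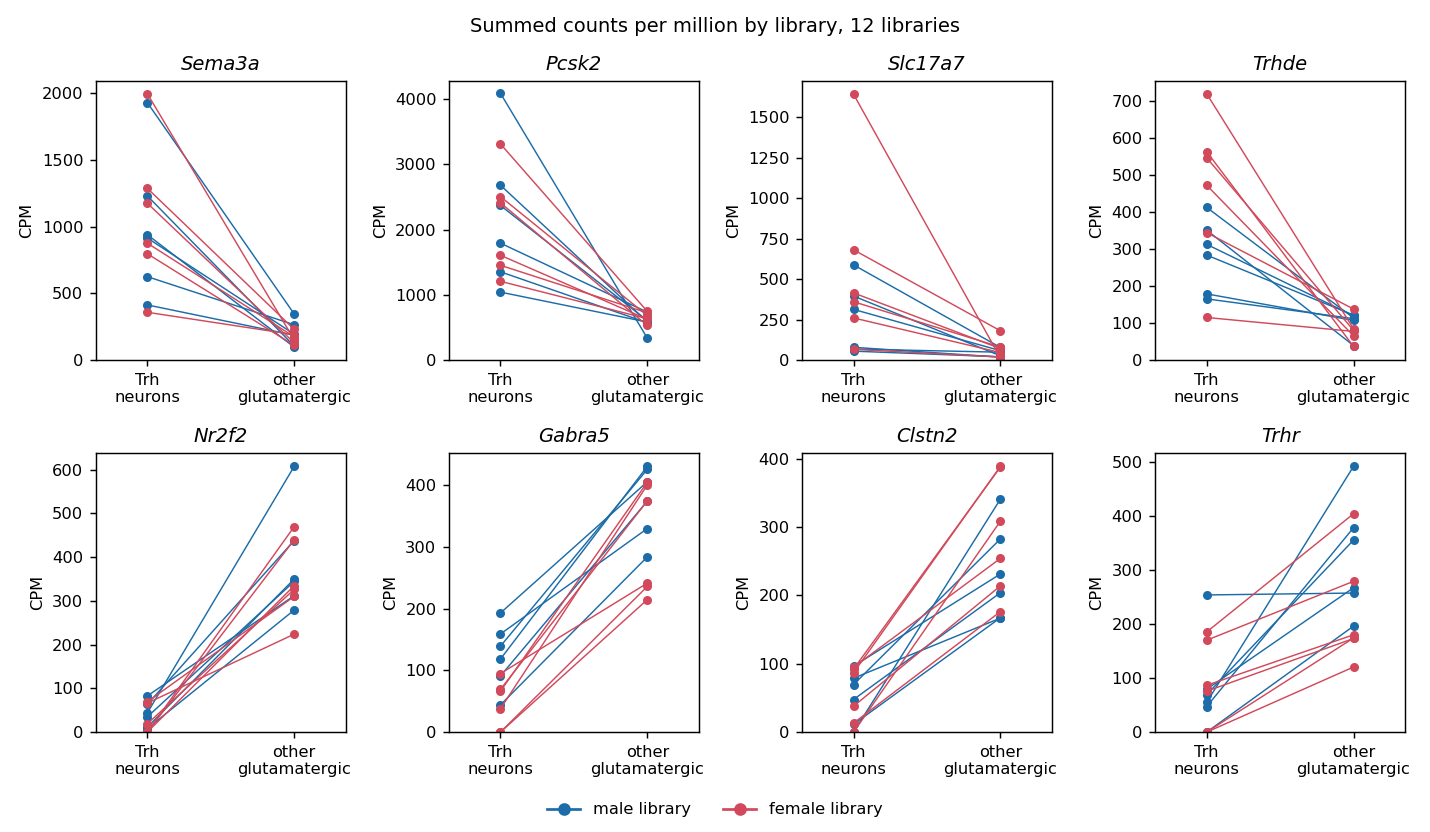
Summed CPM per library (y axis) of 8 genes in Trh neurons (left) and other glutamatergic neurons (right); lines join the 2 kinds of cell of 1 library, blue for male and red for female. Sema3a, Pcsk2, Slc17a7 and Trhde are higher in Trh neurons in 12 of 12 libraries, and Nr2f2, Gabra5, Clstn2 and Trhr are lower in 12 of 12.

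Other peptide genes differed as well. Cartpt, the precursor of the CART peptides, was 181, 827 and 2372 CPM in Trh neurons, against 78.6, 224 and 455 CPM in the others, higher in 11 of 12 libraries with a log2 difference of 1.96 ± 0.37 (adjusted p = 0.00195). Penk was 23.1, 226 and 2448 CPM, against 812, 1577 and 2339 CPM, lower in 11 of 12 libraries with -2.36 ± 0.55 (adjusted p = 0.0223). The exception was female replicate 7, where Penk was 2448 CPM in Trh neurons and 1156 CPM in the others. Penk lost its call without male replicate 1 (adjusted p = 0.0520). Chga, the dense-core vesicle protein chromogranin A, was 947, 2227 and 5161 CPM, against 638, 931 and 1156 CPM, with a log2 difference of 1.39 ± 0.20 (adjusted p = 1.02e-06).

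Cck, the cholecystokinin gene, was 694, 3797 and 9119 CPM in Trh neurons, against 620.0, 1969 and 3213 CPM in the others, and did not pass (0.74 ± 0.38, adjusted p = 0.370). It was seen in 83.9% of Trh neurons and 36.4% of the others, or in 74.8% and 30.3% after thinning, and in 1.41% of astrocytes. In the fit on thinned cells, where deep cells weigh no more than shallow ones, its log2 difference was 1.10 ± 0.17 and passed (adjusted p = 1.52e-05). Pooled Cck was 6280 CPM in the 107 Trh neurons of the largest cluster, whose median depth was 2165 UMIs. It was 175 CPM in the 19 of the second cluster (median 8602 UMIs) and 1258 CPM in the 42 in other clusters (median 3238 UMIs). Why the call for Cck differed between the fits was not tested. Adcyap1, the PACAP gene that marks another group of medial amygdala glutamatergic neurons, was seen in 94 of the 168 Trh neurons (56.0%) and in 39.6% of the others. After thinning these shares were 32.3% and 31.0%. Adcyap1 did not pass (-0.71 ± 0.33, adjusted p = 0.284). Bdnf was 6374 CPM in the Trh neurons of male replicate 1 and 43.4 to 940 CPM in the other libraries, and did not pass (-0.69 ± 0.53, adjusted p = 0.597). On thinned cells it did, as lower (-0.94 ± 0.30, adjusted p = 0.0275). Of the 26 neuropeptide genes listed, 5 were tested, 1 was higher and 1 lower, with a median of -0.71, and of the 12 granin and dense-core vesicle genes 11 were tested, 1 was higher and none lower, with a median of 0.28.

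Crh was too sparse to be tested. It was seen in 36 Trh neurons (21.4%) of 11 libraries and in 9 of the 1077 others (0.836%), with 142 and 12 UMIs. Pooled over cells that is 167 CPM (140 to 197) in Trh neurons and 3.23 CPM (1.67 to 5.64) in the others, with 95% Poisson intervals that cover counting error only. Foxp2 was seen in 24.4% and 2.51% of cells, Col19a1, a collagen gene, in 25% and 3.06%, and Otp in 7.14% and 3.99%. Ucn3 had 61 UMIs in a single Trh neuron and was seen in 2 comparison cells. These genes were chosen after their values were seen.

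Among genes of glutamate transmission, Slc17a7 was 55.1, 337 and 1643 CPM in Trh neurons, against 13.4, 47.5 and 181 CPM in the others. It was higher in 12 of 12 libraries, with a log2 difference of 2.49 ± 0.30 (adjusted p = 3.63e-08). The highest value came from female replicate 5, whose 6 Trh neurons summed to 7485 UMIs. Thinned shares were 18.7% in Trh neurons and 3.42% in the others, against 0.02% of astrocytes. The other 6 tested of 10 listed genes did not pass, and the median over the 7 tested was 0.13.

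Transcription factors of the COUP-TF family were low in Trh neurons. Nr2f2 (COUP-TFII), a nuclear receptor that patterns caudal forebrain, was 0, 26.9 and 82.7 CPM in Trh neurons, against 224, 339 and 607 CPM in the others. The ranges did not overlap, and the log2 difference of -3.27 ± 0.33 (adjusted p = 9.84e-11) was the largest drop among the named genes. Nr2f1 (COUP-TFI) was 15.9, 41.4 and 109.5 CPM, against 109.5, 148 and 240.3 CPM, with -1.60 ± 0.30 (adjusted p = 0.00013). Nr2f2 was seen in 9.52% of Trh neurons and 37.0% of the others, and in 24.0% of astrocytes, which express it. Id2, an inhibitor of basic helix-loop-helix factors, and Tcf4 were lower too, by -1.72 and -1.18, while Mef2c (0.95) and Tshz2 (0.92) were higher. The values of Id2, Tcf4 and Mef2c varied with the kind of comparison cell, as given below. Of 62 listed forebrain transcription factors 12 were tested, 2 higher and 4 lower, with a median of 0.25.

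The smallest adjusted p of all tested genes fell to an axon guidance gene. Sema3a, a secreted repellent ligand, was 358, 927 and 1996 CPM in Trh neurons, against 96.8, 180.2 and 345 CPM in the others. The ranges did not overlap, and the log2 difference was 2.43 ± 0.23 (adjusted p = 2.38e-11), or 2.27 ± 0.26 on thinned cells (adjusted p = 1.14e-08). The 19 Trh neurons of the second cluster held 371 of its 638 UMIs, and the 107 of the largest cluster held 651 CPM, against 159.7 CPM pooled over the other glutamatergic neurons. Nrp2, a co-receptor for semaphorins, was 231, 739 and 1252 CPM, against 200.1, 331 and 436 CPM (1.04 ± 0.23, adjusted p = 0.00113). Robo2, a receptor for Slit ligands, had a log2 difference of 1.09 ± 0.23 (adjusted p = 0.000733), and Unc5c, a netrin receptor, one of 1.14 ± 0.26 (adjusted p = 0.00194).

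Sema6a, Epha5, Sema3e and Unc5d also passed, with log2 differences between 0.77 and 3.01. Lower in Trh neurons were Epha4, an ephrin receptor, at -2.40 ± 0.35 (adjusted p = 1.02e-06), Ntng1, the membrane-bound netrin G1, at -1.89 ± 0.30 (adjusted p = 6.61e-06), and Sema5a at -1.29 ± 0.28 (adjusted p = 0.00117). Epha4 was 0, 39.6 and 176 CPM in Trh neurons, against 67.1, 223 and 400.3 CPM in the others. Ntng1 was 440 CPM in the Trh neurons of male replicate 1 and at most 174 CPM in the other libraries. Of 42 listed semaphorin, ephrin, netrin and Slit genes 25 were tested, 8 were higher and 3 lower, with a median of 0.25.

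Some synaptic organiser genes passed the test. Nxph1, a neurexin-binding secreted protein, was 118, 526 and 1205 CPM in Trh neurons, against 65.5, 149.8 and 259 CPM in the others (1.56 ± 0.27, adjusted p = 4.54e-05). Ptprd, a presynaptic receptor phosphatase, had a log2 difference of 0.98 ± 0.21 (adjusted p = 0.000793), and Lrrtm4, a postsynaptic partner of neurexins, one of 1.20 ± 0.26 (adjusted p = 0.00135). Flrt3, a ligand of latrophilins, was higher by 0.81. Clstn2, a synaptic cadherin-like protein, was 0, 58.7 and 96.5 CPM, against 167, 243 and 389 CPM, with no overlap (-2.11 ± 0.30, adjusted p = 9.47e-07). Of 41 listed synaptic organisers 29 were tested, 6 higher and 1 lower, with a median of 0.28. Of 24 cadherins and protocadherins 17 were tested, with Cdh10 (1.14) and Cdh9 (0.99) higher, Pcdh8 (-1.68) lower and a median of 0.08.

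In the extracellular matrix list, 13 of 43 genes were tested, 2 were higher and 2 lower, with a median of 0.13. Spock3, a secreted proteoglycan, was 615, 1221 and 2945 CPM in Trh neurons, against 402, 573 and 771 CPM in the others, higher in 12 of 12 libraries (1.12 ± 0.21, adjusted p = 0.000174). Ncan, the neurocan gene, had a log2 difference of 1.09 ± 0.29 (adjusted p = 0.00983). Hapln4, a link protein of perineuronal matrix, was lower (-1.11 ± 0.30, adjusted p = 0.0142). Sparc, a secreted glycoprotein also made by glia and vessels, was 0, 19.5 and 133 CPM, against 38.1, 171 and 498 CPM (-2.47 ± 0.36, adjusted p = 1.30e-06).

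**Figure D4:**
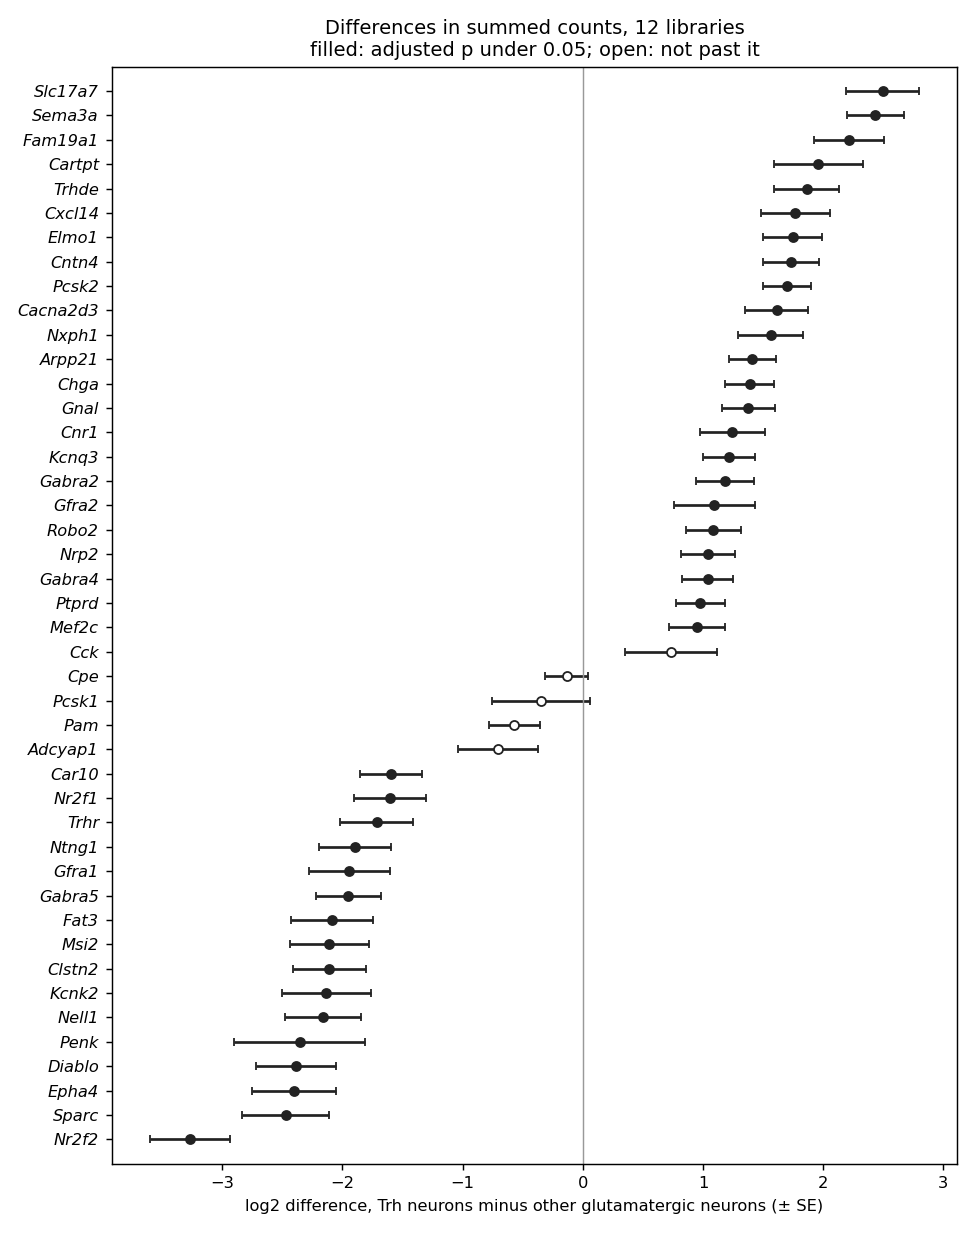
Log2 difference of summed counts, Trh neurons minus other glutamatergic neurons, with its SE over 12 libraries (x axis), for named genes (y axis). Filled points passed an adjusted p of 0.05: Slc17a7 (2.49) and Sema3a (2.43) lie highest, Nr2f2 (-3.27) lies lowest, and the open points of Cck, Cpe, Pcsk1, Pam and Adcyap1 did not pass.

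Receptors for GABA differed by subunit. Gabra4 was 369, 518 and 835 CPM in Trh neurons, against 157, 280.4 and 367 CPM in the others, with no overlap (1.04 ± 0.21, adjusted p = 0.000418). Gabra2 was higher by 1.18 ± 0.24 (adjusted p = 0.000592). Gabra5, whose product forms extrasynaptic receptors, was 0, 80.1 and 193 CPM, against 215, 374 and 431 CPM, with no overlap (-1.95 ± 0.27, adjusted p = 5.32e-07). Gabrg1 was higher (0.80) and Gabrg3 lower (-0.90). Of 16 GABA and glycine receptor genes tested of 18 listed, 3 were higher and 2 lower, with a median of 0.10.

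Grm5, which encodes a metabotropic glutamate receptor, had a log2 difference of 0.70 ± 0.21 (adjusted p = 0.0369), which was 0.13 on thinned cells (adjusted p = 0.731). Of 23 listed glutamate receptor genes 14 were tested, and their median was 0.07. Cnr1, the cannabinoid receptor, was 47.3, 272 and 721 CPM, against 48.1, 108 and 192 CPM (1.24 ± 0.27, adjusted p = 0.00117), the only call among 5 tested of 30 listed monoamine, acetylcholine and cannabinoid receptor genes, whose median was 0.40.

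Of 42 listed potassium channel genes 23 were tested, 5 were higher and 2 lower, with a median of 0.17. Kcnq3, a subunit of the M-current channel, was 345, 771 and 1461 CPM in Trh neurons, against 214, 348 and 499 CPM in the others (1.21 ± 0.21, adjusted p = 4.82e-05). Kcnv1, a silent subunit, was higher in 12 of 12 libraries (1.05 ± 0.25, adjusted p = 0.00428), and Kcnh7 and Kcnab1 had log2 differences of 0.84 and 1.07. Kcnk2, the leak channel TREK-1, was 0, 16.1 and 47.3 CPM, against 84.9, 123 and 174 CPM, with no overlap (-2.13 ± 0.37, adjusted p = 4.06e-05). Kcnj3, the inward rectifier GIRK1, was lower in 12 of 12 libraries (-1.05 ± 0.26, adjusted p = 0.00565). Among 19 tested sodium and calcium channel genes only Cacna2d3, an accessory calcium channel subunit, passed of 33 listed (1.61 ± 0.26, adjusted p = 1.41e-05), and the median over those tested was 0.26.

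Further genes were named for the smallest adjusted p. Fam19a1, which encodes a secreted chemokine-like protein, was 197, 468 and 1319 CPM in Trh neurons, against 47.0, 73.5 and 195 CPM in the others, with no overlap (2.22 ± 0.29, adjusted p = 3.23e-07). Cntn4, a contactin adhesion molecule (1.73), Elmo1, a regulator of Rac signalling (1.75), and Gnal, the G protein subunit Golf (1.38), were each higher in 12 of 12 libraries. Arpp21, a cyclic-AMP regulated phosphoprotein (1.41), and Cxcl14 (1.77) were higher in 11 of 12. On the lower side stood Nell1, a secreted protein, with 0, 44.8 and 125 CPM, against 132, 226 and 271 CPM, with no overlap (-2.16 ± 0.31, adjusted p = 1.04e-06), and Diablo (-2.38), Msi2 (-2.11), Fat3 (-2.09) and Car10 (-1.59). Diablo, a mitochondrial regulator of apoptosis, is an entry for which reads shared with other gene copies or neighbours could not be checked in these counts.

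GDNF-family receptors and plasticity genes gave further pairs. Gfra1, which binds GDNF, was lower in 12 of 12 libraries (-1.94 ± 0.34, adjusted p = 4.06e-05), while Gfra2, which binds neurturin, was higher in 8 of 12 (1.09 ± 0.34, adjusted p = 0.0430). Camk2n1, an inhibitor of CaM kinase II, was higher (0.97 ± 0.20, adjusted p = 0.000666) and Calb1, the calcium buffer calbindin, lower (-1.45 ± 0.34, adjusted p = 0.0027). Egr1, an immediate early gene, was 0, 166 and 334 CPM in Trh neurons, against 19.1, 53.5 and 168 CPM (1.26 ± 0.29, adjusted p = 0.00205). Fos, too sparse to be tested, was at 54.0 CPM in Trh neurons and 11.3 CPM in the others when pooled, with UMIs in 20 and 29 cells. The list of calcium-binding and plasticity genes had 17 of 24 tested, 1 higher and 1 lower, with a median of 0.33. The immediate early genes had 3 of 20 tested and 1 higher, with a median of -0.48, and the neurotrophins and their receptors had 9 of 26 tested, 1 higher and 1 lower, with a median of 0.02.

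The lists of neuropeptide receptors (6 tested), hormone receptors and steroid enzymes (4), thyroid hormone activation and transport (2) and GABA transmitter genes (2) gave no call in this fit. Their median differences were 0.13, -0.18, 0.02 and 0.08. Most of their members were too sparse, since 30, 17, 10 and 15 genes had been listed. Thra, the thyroid hormone receptor alpha, was at 368 CPM in Trh neurons and 392 CPM in the others when pooled, with Poisson intervals of 328 to 411 and 372 to 413 CPM.

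With 1 library left out at a time, 52 of the 65 named called genes kept their call wherever they were tested. The other 13 lost it at least once, and none turned direction. Slc17a7 was tested in only 8 of the 12 omissions, and Angpt1 and Kcnab1 in 11. Penk lost it without male replicate 1, and Mef2c, Ncan and Hapln4 without male replicate 6, with adjusted p of at most 0.0599. Tshz2 lost it without male or female replicate 2 (up to 0.112) and Tcf4 without male replicate 2 or 3 (up to 0.0591). Kcnab1 lost it without male replicate 6 or female replicate 3 or 7 (up to 0.132), and Flrt3 without male replicate 4 or 6 or female replicate 6 or 7 (up to 0.0775). Cdh9 and Gabrg1 lost it in 6 of 12 omissions (up to 0.164 and 0.162), Gfra2 in 6 of 10 (up to 0.142), Grm5 in 8 of 12 (up to 0.151) and Gabrg3 in 9 of 12 (up to 0.123). Male replicate 6 was among the omissions that ended the call for Cdh9, Gabrg1, Gfra2, Grm5 and Gabrg3.

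The comparison cells were themselves of several kinds, which changed some values. Of the 1077, 318 held at least 2 UMIs of Adcyap1, another 171 held Nhlh2 or Trp73, genes known from Cajal-Retzius cells, and 588 held neither. Ndnf was lower in Trh neurons against all of them (-1.24 ± 0.28, adjusted p = 0.00232) but higher once the Nhlh2 or Trp73 cells were left out (1.13, adjusted p = 0.00718). Angpt1, an angiopoietin listed with Ndnf among genes of other glutamatergic kinds, was lower against all of them (-1.91 ± 0.39, adjusted p = 0.000456). That list had 8 of 20 genes tested, 1 higher (Slc17a7) and 2 lower, with a median of -0.71. The pooled level of Ndnf was 244 CPM in Trh neurons, against 20.4 CPM in Adcyap1 neurons, 2209 CPM in Nhlh2 or Trp73 neurons and 169 CPM in the rest. Diablo and Msi2 were likewise high in the Nhlh2 or Trp73 neurons, at 573 and 589 CPM, against 27.0 and 38.8 CPM in Trh neurons, and at 64.0 and 54.6 CPM in Adcyap1 neurons and 52.9 and 92.1 CPM in the rest. Tcf4 and Id2 were at 299 and 508 CPM in the Nhlh2 or Trp73 neurons and at 45.8 and 52.9 CPM in Trh neurons. They were at 44.4 and 67.7 CPM in Adcyap1 neurons and 110 and 116 CPM in the rest.

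Against the Adcyap1 neurons alone, Sema3a (3.03), Fam19a1 (2.65), Nxph1 (2.35) and Trhde (2.34) had larger log2 differences than against all comparison cells, Trhr was lower by -2.53 (adjusted p = 5.26e-07) and Pam passed as lower (-1.20, adjusted p = 3.26e-05). Trhr was pooled at 75.2 CPM in Trh neurons, against 421 CPM in Adcyap1 neurons, 8.60 CPM in Nhlh2 or Trp73 neurons and 187 CPM in the rest. Cartpt no longer passed there (1.37, adjusted p = 0.101). Nr2f2 was lower in Trh neurons than in each kind, at 27.0 CPM, against 238, 556 and 197 CPM. Of the 65 named genes called in the main comparison, 39 could be fitted against Adcyap1 neurons and 35 kept their call. Besides Cartpt, those that lost it were Mef2c (0.53, edgeR, adjusted p = 0.230), Grm5 and Gabrg1. Without the Nhlh2 or Trp73 neurons 54 could be fitted, 47 kept their call and 1, Ndnf, turned. The 6 that lost it were Mef2c (0.60, edgeR, adjusted p = 0.107), Cdh9, Ncan, Kcnv1, Grm5 and Gabrg1.

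Astrocyte and oligodendrocyte transcripts were scarce in the Trh neurons. The 8 astrocyte markers made up 0.00756% to 0.0852% of UMIs per library in Trh neurons, against 0.0267% to 0.125% in the others, higher in Trh neurons in 0 of 13 libraries, while astrocytes themselves held 3.10%. The 8 oligodendrocyte markers made up 0.0221% to 0.0590%, against 0.0360% to 0.314%, with 11.4% in oligodendrocytes. All of these were seen at least once in Trh neurons, while the microglial marker Tmem119, the endothelial marker Tek and the mural markers Pdgfrb, Tagln, Kcnj8 and Higd1b were at 0 UMIs. The 8 microglial markers made up 0.00435% to 0.0243% (median 0.0134%), against 0.00370% to 0.0279% (median 0.00990%), higher in Trh neurons in 7 of 13 libraries. Of the 8 GABAergic markers, Slc32a1 was at 0 by the rule that chose both kinds of cell, and Dlx2 and Dlx5 were at 0 UMIs in Trh neurons. The 8 together made up 0.0125% to 0.0935%, against 0.0118% to 0.0301%, higher in 10 of 13 libraries. Of 5 tested astrocyte and oligodendrocyte markers 1 was called, Slc1a3, as lower. This count covers the listed markers only. The 73 lower calls also held Sparc (-2.47), which glia make too, and Apoe (-1.39), Glul (-1.48) and Slc1a2 (-0.99), none of them on these lists. They were picked from the calls after their values were seen.

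Leaving out cells with more than 0.2% of their UMIs in non-neuronal markers kept 138 Trh neurons and 882 others and left 121 genes called, 110 of them among the 193. Nr2f2 kept its call there, and Sparc, which glia and vessels also hold, was too low to be tested. Of 63 named genes that could be tested, 14 lost their call, among them Cartpt (adjusted p = 0.246), Penk (-2.36, adjusted p = 0.180), Nxph1 (1.27, adjusted p = 0.155), Unc5c (0.77, adjusted p = 0.127), Sema5a (-1.48, adjusted p = 0.0945), Lrrtm4 (0.90, adjusted p = 0.0745) and Kcnv1 (0.76, adjusted p = 0.0829). Ndnf, Cdh9, Ncan, Kcnh7, Grm5, Gabrg1 and Gfra2 were the others. The part of glial RNA in the lower genes was not tested further.

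The second question of the design was whether the sexes differ. Trh neurons made up 2.87% to 7.36% of the neurons of a male library (median 4.60%) and 2.08% to 7.97% of a female library (median 3.14%), so the ranges overlapped widely. The means were 4.68% ± 1.59 in males (SD, n = 6) and 4.29% ± 2.28 in females (SD, n = 7), a difference of 0.38 percentage points that was smaller than either spread (exact two-sided permutation test over 1716 assignments, p = 0.734). Of the neurons with Slc17a6 or Trh and without Slc32a1, 13.7% ± 5.24 were Trh neurons in males and 12.1% ± 6.46 in females (SD, n = 6 and 7; exact permutation test, p = 0.646). Fewer Trh neurons and less Trh RNA per cell cannot be told apart by such a share where a cell is counted from 2 UMIs.

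Summed over all neurons of a library, Trh was 175 ± 86.7 CPM in males (SD, n = 6) and 186 ± 160 CPM in females (SD, n = 7). The log2 difference, male minus female, was -0.11 ± 0.58 (edgeR's quasi-likelihood test, adjusted p = 0.981). Of 9621 genes tested in all neurons 6 passed (0.0624%), 4 higher (0.0416%) and 2 lower (0.0208%) in males, and Trh was not among them. The highest library was female replicate 6 with 460.0 CPM, and female replicates 1 and 3 were lowest with 40.6 and 40.1 CPM. The sign of this difference turned when male replicate 1, male replicate 3, female replicate 6 or female replicate 7 was left out, with values between -0.37 and 0.28 over all such omissions. Abi3bp and C1ql3 over all neurons had log2 differences of -0.56 ± 0.36 and -0.51 ± 0.26 (adjusted p = 0.816 and 0.787).

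**Figure D5:**
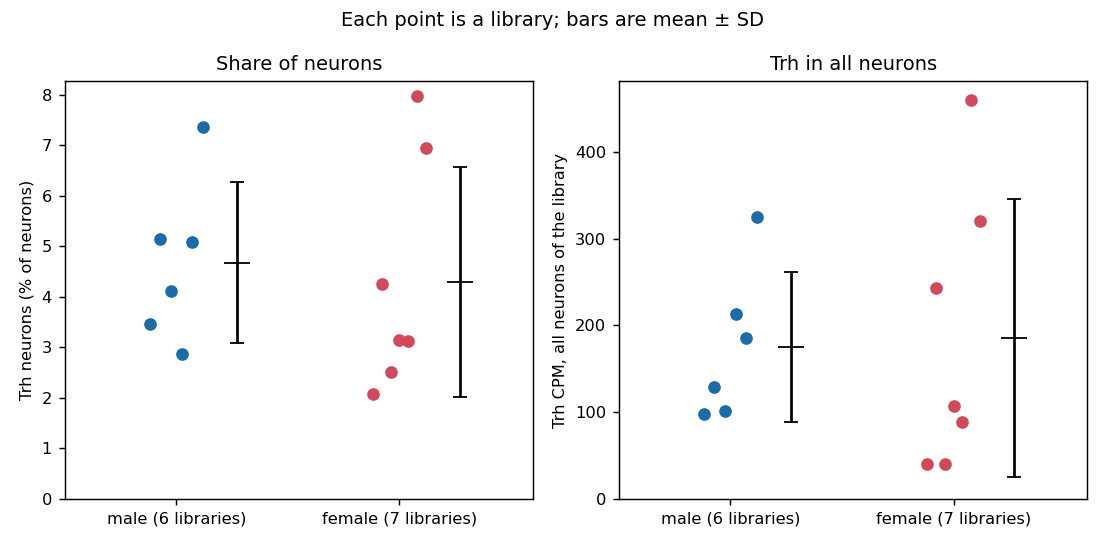
Share of neurons that were Trh neurons (left panel, %) and Trh CPM over all neurons (right panel), 1 point per library, with mean ± SD beside the points. The 6 male libraries lie between 2.87% and 7.36% and the 7 female libraries between 2.08% and 7.97%, so the sexes overlap in both panels.

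Within the Trh neurons, 1521 genes could be tested between 6 male and 6 female libraries, and 1 passed (0.0657%), which was lower in males. That gene was Xist, the transcript that silences an X chromosome in females, with 0 UMIs in male and 373 UMIs in female Trh neurons (adjusted p = 2.38e-08). DESeq2 also called 1 gene, and 29 genes had an unadjusted p under 0.05 with edgeR. In simulated counts the edgeR fit called 48.7% of changes of 1 on the log2 scale and 100% of changes of 2, so smaller differences can be missed. Every simulated gene had the same spread between libraries. In the real fit the SE was 0.31 for Pcsk2 and 0.65 for Slc17a7, so larger differences can be missed too in variable genes. The Y-linked genes Ddx3y and Eif2s3y, below the filter, had 56 and 32 UMIs in males and 0 in females, so the sexes matched their labels. The list of sex-linked genes had 2 of 10 tested between Trh neurons and the others, with no call and a median of -0.18. Abi3bp averaged 290.5 ± 174 CPM in male and 411 ± 253 CPM in female Trh neurons, while C1ql3 averaged 995 ± 593 CPM in the male and 1391 ± 951 CPM in the female ones (SD, n = 6 each; edgeR, adjusted p = 0.999 for both genes). Sema3a was 1236 ± 670 CPM in males and 1363 ± 676 CPM in females, a log2 difference of -0.11 ± 0.39 (adjusted p = 0.999).

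The term for whether the difference of Trh neurons from other glutamatergic neurons varied by sex was past the threshold for 0 of 3507 genes (0%) with edgeR and 0 with DESeq2, with 54 and 66 genes at an unadjusted p under 0.05. In simulated counts the edgeR term called 11.1% of changes of 1 on the log2 scale and 79.1% of changes of 2. That simulation also gave every gene the same spread, while the SE of the real term was 0.41 for Pcsk2 and 1.14 for Penk. The lack of calls therefore does not show that the sexes are alike. Cxcl14 had the smallest unadjusted p of this term among the named genes, with a male effect below the female one by -1.47 ± 0.55 on the log2 scale (unadjusted p = 0.00906, edgeR, adjusted p = 1). It was 219 ± 140 CPM in male and 505 ± 258 CPM in female Trh neurons (SD, n = 6 each).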

How the data were processed

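The deposited table gave UMI counts, whole numbers per gene and cell with no normalization, for 16961 genes and 43388 cells. The mm10 genome, STAR 2.5.0a and bcl2fastq 2.17.1.14 are named in the submitters' processing notes. UMI collapsing, cell choice and the naming of classes by the authors are not given in the sources used here. Library and class came from the cell names. Neurons with at least 500 detected genes were used, and doublets called by Scrublet (281 of 24808 cells, 1.13%) were kept except in an alternative. Counts were summed per library and kind, with libraries of at least 5 cells of each kind. Trh, Slc32a1 and Slc17a6 were left out of totals and tests, and Abi3bp and C1ql3 were described only. edgeR 4.0.16 in R 4.3.3 was run with TMM scaling, filterByExpr, robust quasi-likelihood fits and the library as a block (none between the sexes). CPM per library are TMM-scaled, and pooled CPM are not. Tests were checked on simulated data. DESeq2 1.42.0 was an alternative. Clusters used scanpy 1.11.5, with 2000 variable genes, 30 components and Leiden resolution 1. Thinning drew 1000 UMIs per cell. Genes were named if among the 12 with the smallest adjusted p per direction with at least 20 CPM, if called in a list (up to 4 per direction), or if given by symbol in the rule. The members and the 23 lists were chosen with earlier results of these data known. A further 3 comparisons were added after seeing the data: without cells rich in non-neuronal markers, against Adcyap1 neurons only, and without Nhlh2 or Trp73 neurons. A gene named by the rule above is not reported here.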

Additional observations from a re-analysis of the deposited data

Results flagged for a closer look

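Among the named genes, 36 checks were made for a library far from the other 5 of its sex in CPM of Trh neurons, and chance marks about 1 group in 20. In 6 of them the gap to the nearest library was too large a share of the group's range for a group of this size. Abi3bp reached 634 CPM in male replicate 6, with the next male library at 300.2 CPM. Fam19a1 reached 1582 CPM in 1 male library, with the next at 698 CPM. Slc17a7 reached 2581 CPM in female replicate 5, with the next female library at 752 CPM. Cntn4 reached 1204 CPM in 1 female library, with the next at 598 CPM. Arpp21 was 516 CPM in female replicate 5, with the next female library at 1529 CPM, and Cacna2d3 was 70.3 CPM in female replicate 2, with the next at 406 CPM. Female replicate 5 held 6 Trh neurons with 7485 UMIs in all. These values are scaled within the fit between the sexes and so differ from those of the comparison with other neurons.

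Trh was also above the astrocyte level in neurons with Slc32a1. These neurons, which the comparisons leave out, held 6.54 CPM of Trh (95% Poisson interval 4.55 to 9.09), against 0.771 CPM (0.385 to 1.38) in astrocytes. Endothelial cells held 2.93 CPM (1.41 to 5.40), an interval that overlaps the one of the Slc32a1 neurons. Trh was seen in 15 of the 1436 neurons with Slc32a1, of which 5 held at least 2 UMIs of it.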

How the results depend on the processing

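The count of 193 genes that differed between Trh neurons and other glutamatergic neurons moved by more than 1.5 times with no filter on low counts (507 of 16000), with no replicate block, that is without the library as a pair (303), on cells thinned to 1000 UMIs (110 of 599 genes tested), against all Trh-free neurons without Slc32a1 (545) and without cells rich in non-neuronal markers (121). DESeq2 called 241. Leaving out 1 library gave 137 (male replicate 6) to 234 (male replicate 3). Over 65 named called genes, 1546 of 1660 alternative values kept direction and call, 113 lost the call and 1 turned: Ndnf, to 1.13 without Nhlh2 or Trp73 neurons. Of genes not called, Bdnf turned to 0.29 with no replicate block, Pcsk1 to 0.0054 against all Slc32a1-free neurons and Cpe to 0.088 against Adcyap1 neurons. The causes were not tested.

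Between the sexes in Trh neurons, 5 genes passed with no filter and 2 with at least 3 Trh UMIs required, against 1. Leaving out 1 library gave 1 each time. The difference in share of 0.38 points turned to -0.29 with no minimum of detected genes and to -0.26 on thinned cells, and was -0.16 to 0.995 with 1 library left out. Trh over all neurons turned to 0.15 with age as a covariate, and was -0.37 to 0.28 with 1 library left out.

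Replicate numbers are shared by the sexes in the labels, which do not say whether they pair the libraries. Deviations of same-numbered libraries correlated at -0.43 to 0.19 over 5 numbers. They come from sums over few Trh neurons per library, too sparse to decide whether the numbers mark pairs. With the replicate block the difference in share was 0.83 points (exact sign-flip test, p = 0.125), Trh over all neurons 0.44 (adjusted p = 0.883), and 1 gene passed in Trh neurons. Depth limits the genes that can be tested: 3507 of 16961 for the kinds of neuron and 1521 for the sexes.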
